A study of Mus musculus with 6 samples.

Results

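The 10 genes described here encode proteins that build small nucleolar ribonucleoproteins (snoRNPs). Fbl, Nop56 and Nop58 belong to the box C/D particles, and Dkc1, Nop10, Nhp2 and Gar1 to the box H/ACA particles. Nolc1, Naf1 and Shq1 are assembly and trafficking factors. The genes were taken by gene symbol from the 22332 symbols of the deposited table, in which all 10 were found. RNA had been sequenced from CGR8 cells, a line of mouse embryonic stem cells, kept in medium that held LIF and 10% serum. One group had received an siRNA pool against Rsl24d1, whose protein acts in building the large ribosomal subunit (siRSL24D1, n = 3), and the other a non-targeting pool (siCtrl, n = 3). Both were collected after 48 hours, so every library came from transfected cells; untransfected cells were not analysed here, and the comparison rests on 1 cell line and 1 siRNA pool against Rsl24d1. The design text calls the libraries of a group independent, and p-values measure the spread between these libraries.

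Ribosomal RNA is modified at many positions while it is still a precursor in the nucleolus. A box C/D snoRNA guides 2'-O-methylation and a box H/ACA snoRNA guides pseudouridylation, each by pairing with the rRNA and placing the catalytic protein of its particle, fibrillarin (Fbl) or dyskerin (Dkc1), at the target base. Most snoRNAs of mammals are cut out of introns of protein-coding or non-coding host genes. The H/ACA proteins also bind the telomerase RNA, and embryonic stem cells, which divide fast, make many ribosomes.

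Several of these genes carry the RNA partners of the particles within their own introns. GENCODE M21 places 10 snoRNA genes inside 3 of the 10 genes (5 in Nop56, 4 in Nop58 and 1 in Dkc1), and 9 of them lie outside the exons of coding transcripts. None of the 10 has a row in the deposited table, so their levels are not analysed here. A snoRNA of each kind is shown because it is what the encoded proteins recognise. In the box C/D snoRNAs the capitals mark TGATGA within the first 20 bases, the core of box C, and CTGA within the last 12 bases, box D; 3 of the 10 hold both. In the H/ACA snoRNA they mark the ACA that stands 3 bases before the end, which 1 of the 10 holds. All are on the plus strand of GRCm38, at chr2:130275506-130275573 for Snord110 and chr2:130276237-130276369 for Gm24451, both within Nop56, and at chr1:59704790-59704873 for Snord11, within Nop58.
Snord110: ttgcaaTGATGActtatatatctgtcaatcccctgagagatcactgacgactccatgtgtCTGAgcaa
Snord11: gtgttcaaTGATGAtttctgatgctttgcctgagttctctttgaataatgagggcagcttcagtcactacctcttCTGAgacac
Gm24451: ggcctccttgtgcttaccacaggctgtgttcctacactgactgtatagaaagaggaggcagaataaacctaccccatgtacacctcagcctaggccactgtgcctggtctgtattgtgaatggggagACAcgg

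Library totals lay between 30943635 and 35214000 estimated counts. The siRNA target was measured first. Rsl24d1 stood at 53.8, 55.6 and 52.1 CPM (counts relative to library size after TMM scaling) in siRSL24D1, against 99.4, 102.7 and 97.9 CPM in siCtrl, a log2 fold change of -0.89 ± 0.04 (SE, edgeR quasi-likelihood test, adjusted p = 2.02e-05). The 6 stem cell markers Pou5f1, Sox2, Nanog, Zfp42, Esrrb and Dppa5a were present in every library and summed to 2136 to 2227 CPM in siRSL24D1 and 2310 to 2616 CPM in siCtrl, here scaled to library totals only. Of these 6, 1 was called higher and 3 lower, where 21.2% and 20.0% of all genes tested were called (edgeR adjusted p under 0.05). Lists of 6 fibroblast, 5 primitive endoderm and 5 trophoblast markers summed to 92.9 to 120.3, 17.4 to 18.6 and 54.0 to 56.6 CPM in siRSL24D1, and to 104.5 to 138.4, 17.0 to 19.5 and 56.3 to 59.3 CPM in siCtrl, with 0 of the listed genes at 0 in all libraries. Set beside the same shares of all genes, calls in those lists were 0 higher and 2 lower among the 5 fibroblast markers tested. For endoderm markers they were 2 and 1 of 5, and for trophoblast markers 3 and 1 of 4. Their part in the results below was not tested.

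A library of each group stood apart from the other two. The chi-square per degree of freedom between the counts of siCtrl 1 and 2 was 2.68, but 18.6 and 14.1 when siCtrl 3 was set against them, and that between siRSL24D1 1 and 3 was 4.15, but 12.2 and 14.9 when siRSL24D1 2 was set against them. Transcript length moved with this. In siCtrl 3 the shortest class of transcripts (genes split by length into 3 equal classes) had a median log2 difference of -0.08 from siCtrl 1 and 2, and the longest class one of 0.10. In siRSL24D1 2, set against siRSL24D1 1 and 3, the medians were 0.08 and -0.07. Between the groups they were -0.04 for the shortest and 0.07 for the longest class in siRSL24D1 relative to siCtrl. Values below are therefore also given without these libraries where that changes a call. Leaving out both together was chosen after seeing the data. It takes the library that leans to long transcripts from siCtrl and the one that leans to short transcripts from siRSL24D1. The length difference between the groups then widens, and no fit without both libraries was corrected for length.

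In cells with reduced Rsl24d1, 5 of the 10 snoRNP genes were higher and 0 were lower. All 10 passed the low-count filter. The 5 were Nop58, Dkc1, Nop56, Nhp2 and Nolc1, which rose by 12.5% to 19.3%. Fbl, Nop10, Gar1, Naf1 and Shq1 did not pass the test, which at changes this small does not show that they were unchanged. A gene was called at a Benjamini-Hochberg adjusted p under 0.05 over the 15084 genes tested, of which 21.2% were called higher and 20.0% lower, 41.2% in all. The median log2 fold change was 0.11 over the 10 genes and 0.02 over all genes tested. The rises were small beside others in these libraries: of all genes called higher, 72.3% had a larger log2 fold change than Nop58, the snoRNP gene that differed most, and the median of genes called higher was 0.37. DESeq2 also called 5 of the 10 higher and 0 lower, where it called 17.3% of all genes higher and 17.9% lower, and so did limma-voom, with 21.1% and 20.0%. At an unadjusted p under 0.05, 5 of the 10 were higher and 0 lower, against 25.7% and 24.3% of all genes. With upper-quartile scaling 3 were higher and 0 lower, against 18.4% and 22.4% of all genes. When each library was left out in turn, 3 to 5 were higher and 0 to 1 lower, against 14.5% to 22.0% and 14.1% to 21.5% of all genes. In bulk RNA, fewer cells that express a gene and less of its RNA per cell cannot be told apart.

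**Figure D1:**
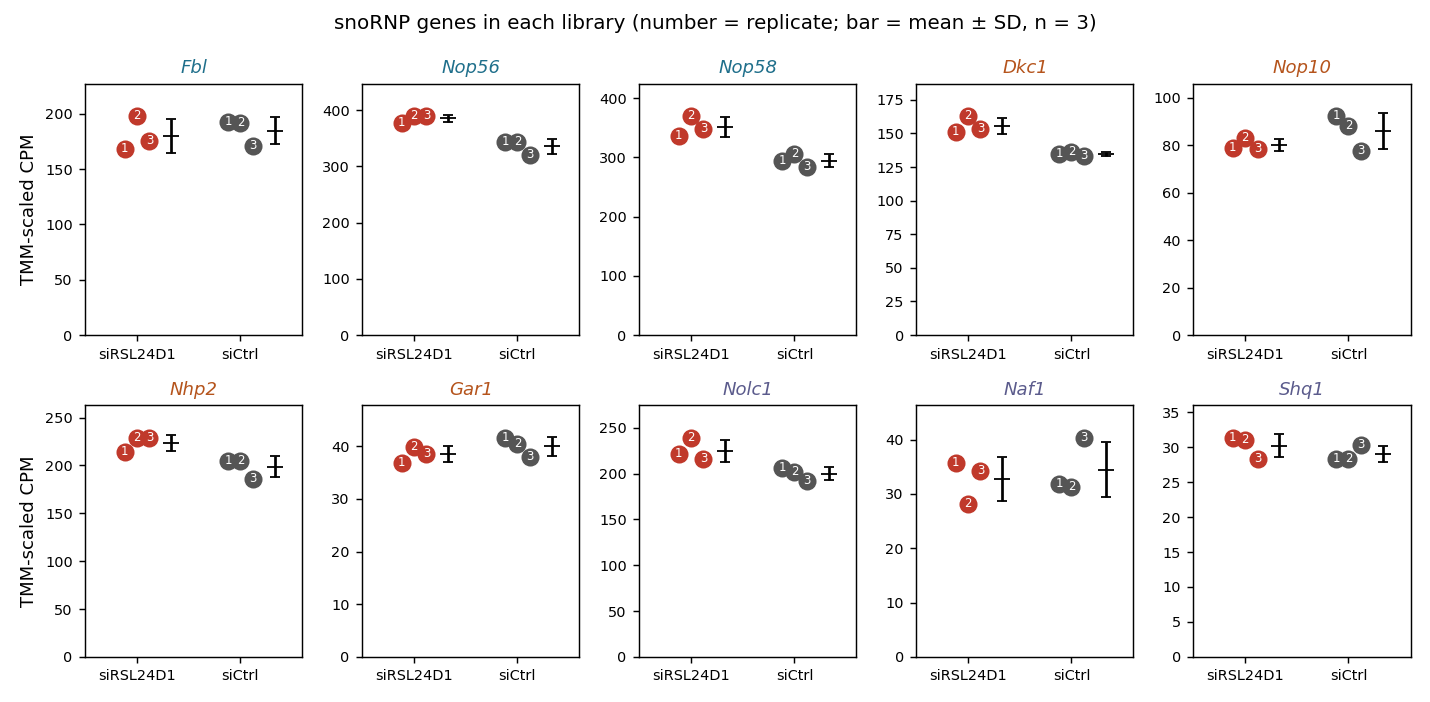
TMM-scaled CPM of the 10 snoRNP genes (y axes from 0) in each library, siRSL24D1 in red on the left and siCtrl in grey on the right of each panel; numbers are replicates and bars are mean ± SD (n = 3). For Nop56, Nop58, Dkc1, Nhp2 and Nolc1 all 3 siRSL24D1 libraries lie above all 3 siCtrl libraries, while for the other 5 genes the groups overlap.

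Among the box C/D proteins, the paralogous pair Nop56 and Nop58 rose and Fbl did not pass the test. Nop56, a scaffold subunit that holds fibrillarin on the particle, stood at 378, 389 and 389 CPM in siRSL24D1, against 344, 343 and 320 CPM in siCtrl. The groups did not overlap, as was so for 26.8% of all genes tested in this direction and 26.2% in the other; the means were 385 ± 6.22 and 336 ± 13.2 CPM (SD, n = 3 each), a log2 fold change of 0.20 ± 0.04 (SE, edgeR adjusted p = 0.00669). Nop58, the second scaffold subunit, stood at 337, 369 and 349 CPM in siRSL24D1, against 294, 307 and 284 CPM in siCtrl. Here too every siRSL24D1 library was above every siCtrl library, with means of 352 ± 16.4 and 295 ± 11.4 CPM and a log2 fold change of 0.25 ± 0.05 (SE, edgeR adjusted p = 0.00422). The ratio of Nop56 to Nop58 counts within a library does not depend on scaling. It was 1.12, 1.05 and 1.11 in siRSL24D1 and 1.17, 1.12 and 1.13 in siCtrl, a log2 difference of -0.05 (two-sided exact permutation p = 0.2). In GRCm38, Nop56 spans chr2:130274430-130279313 (12 exons in the longest coding transcript), Nop58 chr1:59684971-59719044 (15 exons) and Fbl chr7:28169710-28179269 (9 exons), all on the plus strand.

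The remaining box C/D gene of those described here varied from library to library. Fbl, the methyltransferase of the particle, stood at 168, 198 and 175 CPM in siRSL24D1, against 192, 191 and 171 CPM in siCtrl. The groups overlapped: siRSL24D1 2 was the highest of the 6 libraries, and siCtrl 3 was close to the lower siRSL24D1 libraries. The log2 fold change was -0.04 with an interval of 2 standard errors from -0.18 to 0.11 (edgeR adjusted p = 0.717). Without siCtrl 3 and siRSL24D1 2, the libraries that stood apart, Fbl fell by 0.18 on the log2 scale (edgeR adjusted p = 0.00114, 2 libraries in each group). Those 2 libraries held the lowest siCtrl and the highest siRSL24D1 value of Fbl. Leaving them out was chosen after seeing the data and parts the groups, so this p does not measure the spread between all 6 libraries. Corrected for transcript length, with all 6 libraries, Fbl was at -0.02 (edgeR adjusted p = 0.834).

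Of the 4 box H/ACA proteins, Dkc1 and Nhp2 rose, while Nop10 and Gar1 did not pass the test. Dkc1, the pseudouridine synthase, stood at 151, 163 and 153 CPM in siRSL24D1, against 135, 136 and 133 CPM in siCtrl. The siCtrl libraries lay within a few CPM of each other and below every siRSL24D1 library, with means of 156 ± 6.19 and 135 ± 1.5 CPM (SD, n = 3 each) and a log2 fold change of 0.21 ± 0.04 (SE, edgeR adjusted p = 0.00508). Nhp2, an RNA-binding core subunit, stood at 214, 228 and 229 CPM in siRSL24D1, against 205, 205 and 186 CPM in siCtrl. Its groups did not overlap either, though siRSL24D1 1 came close to siCtrl 1 and 2; the log2 fold change was 0.17 ± 0.05 (SE, edgeR adjusted p = 0.0282). That call was lost at a similar log2 fold change without siCtrl 2 (0.19, adjusted p = 0.069), without siRSL24D1 2 (0.16, adjusted p = 0.0701), without siRSL24D1 3 (0.16, adjusted p = 0.0957) and with upper-quartile scaling (0.14, adjusted p = 0.0689). It was lost at a smaller one without siCtrl 3 (0.11, adjusted p = 0.0622) and without both libraries that stood apart (0.09, adjusted p = 0.0609). Corrected for transcript length, Nhp2 was at 0.25 (adjusted p = 0.00141).

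Nop10, the smallest core protein, which binds dyskerin directly, stood at 78.9, 83.1 and 78.6 CPM in siRSL24D1, against 92.2, 88.2 and 77.6 CPM in siCtrl. The siCtrl values spread widely, and siCtrl 3 was the lowest of all 6 libraries. The log2 fold change was -0.10, with an interval from -0.23 to 0.03 (edgeR adjusted p = 0.251). Without siCtrl 3 Nop10 fell by 0.18 (edgeR adjusted p = 0.0144), and without both siCtrl 3 and siRSL24D1 2 by 0.21 (adjusted p = 0.000783). After the transcript length correction it was at -0.03 (adjusted p = 0.64).

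Gar1, which joins the mature H/ACA particle in the nucleolus, stood at 36.9, 39.9 and 38.6 CPM in siRSL24D1, against 41.5, 40.4 and 38.0 CPM in siCtrl. The groups overlapped, with a log2 fold change of -0.06 and an interval from -0.16 to 0.05 (edgeR adjusted p = 0.441). Without siCtrl 3 and siRSL24D1 2 Gar1 fell by 0.14 (edgeR adjusted p = 0.0411), while the length correction put it at 0.01 (adjusted p = 0.913). Dkc1 lies at chrX:75095854-75109777 (15 exons), Nhp2 at chr11:51619735-51623714 (4 exons) and Nop10 at chr2:112261926-112263269 (2 exons), on the plus strand, and Gar1 at chr3:129824912-129831396 (7 exons), on the minus strand.

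Of the assembly and trafficking factors, Nolc1 rose and Naf1 and Shq1 did not pass the test. Nolc1 (Nopp140), a phosphoprotein that binds both classes of snoRNP and moves between nucleolus and Cajal body, stood at 221, 239 and 215 CPM in siRSL24D1, against 206, 202 and 192 CPM in siCtrl. Every siRSL24D1 library was above every siCtrl library, with a log2 fold change of 0.17 ± 0.05 (SE, edgeR adjusted p = 0.0269). Its call was lost without siCtrl 2 (0.17, adjusted p = 0.086), without siRSL24D1 1 (0.18, adjusted p = 0.0538), without siCtrl 3 (0.13, adjusted p = 0.0626), without siRSL24D1 2 (0.13, adjusted p = 0.0727) and with upper-quartile scaling (0.14, adjusted p = 0.0667). Without both libraries that stood apart the log2 fold change was 0.08 (adjusted p = 0.0839).

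Naf1, which holds the place of Gar1 in the immature H/ACA particle, was the most variable of the 10 genes between libraries. It stood at 35.7, 28.1 and 34.3 CPM in siRSL24D1, against 31.8, 31.3 and 40.3 CPM in siCtrl. The libraries that stood apart were its extremes: siCtrl 3 was the highest of the 6 and siRSL24D1 2 the lowest. The log2 fold change was -0.08, with an interval from -0.31 to 0.16 (edgeR adjusted p = 0.639), and its sign turned without siCtrl 3 (0.04), without siRSL24D1 2 (0.02) and without both (0.13, adjusted p = 0.0545). Shq1, the chaperone that keeps free dyskerin from binding RNA too early, stood at 31.3, 31.1 and 28.3 CPM in siRSL24D1, against 28.3, 28.4 and 30.3 CPM in siCtrl. The groups overlapped, at a log2 fold change of 0.06 with an interval from -0.06 to 0.18 (edgeR adjusted p = 0.449). Nolc1 lies at chr19:46075863-46085530 (13 exons) and Naf1 at chr8:66860217-66890564 (8 exons), on the plus strand, and Shq1 at chr6:100568256-100671157 (11 exons), on the minus strand.

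**Figure D2:**
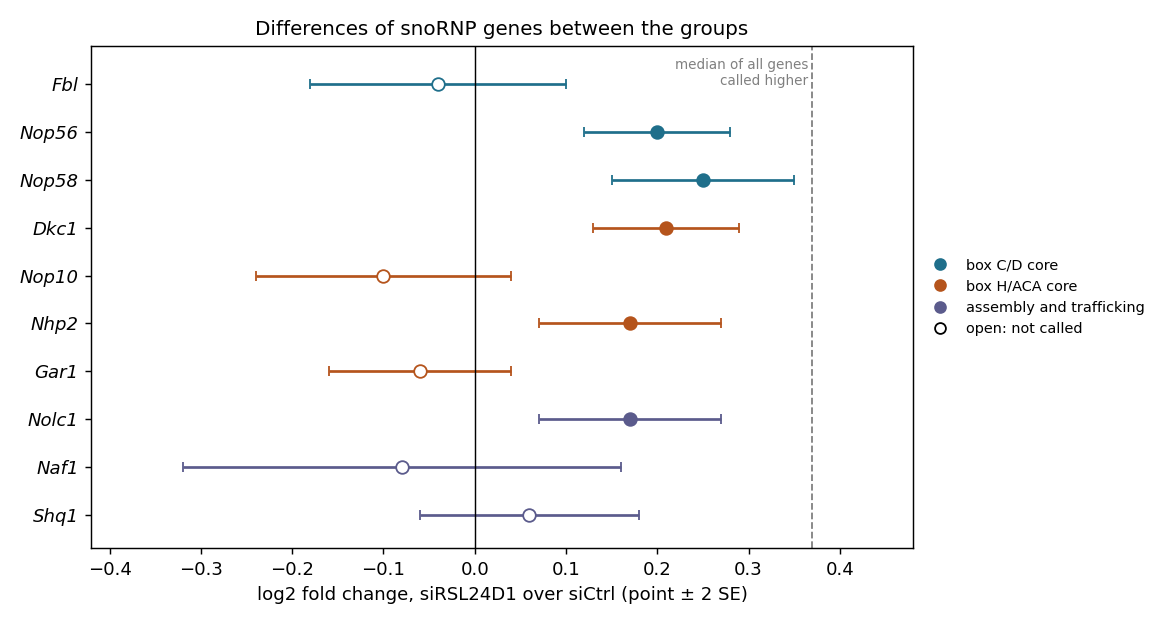
Log2 fold change of siRSL24D1 over siCtrl (x axis) of each snoRNP gene, as point ± 2 standard errors, coloured by the role of the protein; filled points passed an adjusted p under 0.05. Nop56, Nop58, Dkc1, Nhp2 and Nolc1 lie between 0.17 and 0.25, left of the dashed median of all genes called higher (0.37), and the other 5 genes lie between -0.10 and 0.06.

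**Figure D3:**
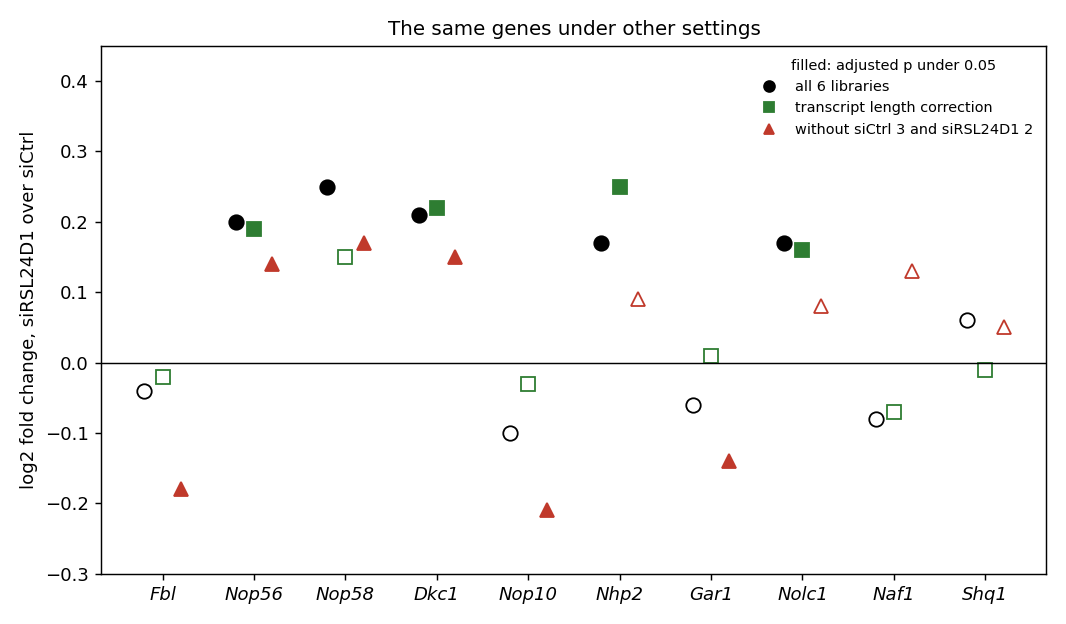
Log2 fold change of the same genes with all 6 libraries (circles), after a loess correction for transcript length (squares), and without siCtrl 3 and siRSL24D1 2 (triangles); filled symbols passed an adjusted p under 0.05. Nop56 and Dkc1 are filled under all 3, while Fbl, Nop10 and Gar1 are filled, below 0, without the 2 libraries.

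Nop56 and Dkc1 kept their calls in all 20 alternatives, with log2 fold changes of 0.14 to 0.23 and 0.15 to 0.23. Nop58 lost its call under the correction for the length of the longest transcript (0.15, adjusted p = 0.278; with the replicate number also in the model, adjusted p = 0.0973), and under no other alternative. That longest transcript has 9507 bases, against 1713 for the longest APPRIS principal transcript (the isoform that annotation ranks as the main one); corrected for the latter, an alternative chosen after seeing the data, Nop58 was at 0.29 (adjusted p = 0.00042). Without siCtrl 3 and siRSL24D1 2, 3 snoRNP genes were called higher (Nop56, Nop58 and Dkc1) and 3 lower (Fbl, Nop10 and Gar1), where 26.4% and 26.5% of 15115 genes tested were called. That fit has a wider length difference between the groups and was not corrected for it. With all 6 libraries and the length correction, Fbl, Nop10 and Gar1 were at -0.02, -0.03 and 0.01 (edgeR adjusted p = 0.834, 0.64 and 0.913).

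Of 5 ratios between the RNA counts of paired snoRNP genes, 2 did not overlap between the groups and 0 passed an exact permutation test. For single genes the groups did not overlap in 26.8% (higher) and 26.2% (lower), and the share over gene ratios was not measured. The 2 ratios share Dkc1 as denominator, so they are not independent of its call. Dkc1 was called higher at 0.21, while Nop10 (-0.10) and Shq1 (0.06) were not called. The ratio of Nop10 to Dkc1 counts was 0.523, 0.511 and 0.513 in siRSL24D1, against 0.684, 0.648 and 0.583 in siCtrl. It was lower in every siRSL24D1 library, with mean log2 ratios of -0.96 ± 0.02 and -0.65 ± 0.12 (SD, n = 3 each) and a difference of -0.30 (two-sided exact permutation p = 0.1; adjusted over 5 ratios, 0.25). Groups of 3 cannot reach a p below 0.1 in this test. Shq1 over its client Dkc1 was 0.207, 0.191 and 0.185 in siRSL24D1, against 0.210, 0.208 and 0.227 in siCtrl. These groups did not overlap but came close, at a difference of -0.15 (exact permutation p = 0.1; adjusted over 5 ratios, 0.25). Nhp2 over Dkc1 differed by -0.03 (exact permutation p = 0.5) and Naf1 over Gar1, the factor exchanged for it, by -0.02 (exact permutation p = 1), both with overlapping groups. The sign of the Naf1 to Gar1 difference turned without siCtrl 3 (0.14) or without siRSL24D1 2 (0.11).

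**Figure D4:**
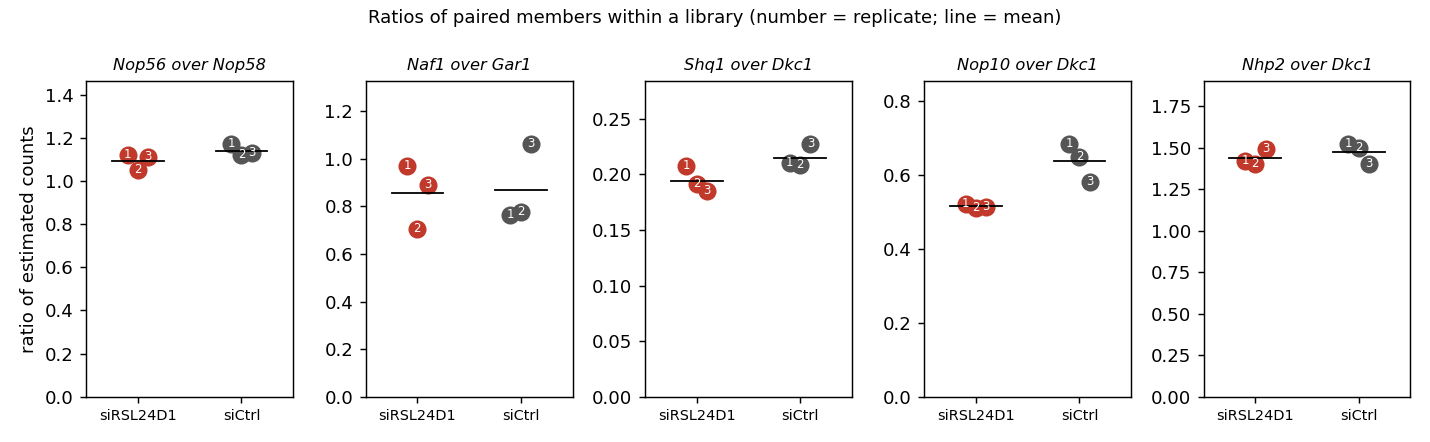
Ratio of the estimated counts of paired snoRNP genes within each library (y axes from 0), siRSL24D1 on the left and siCtrl on the right of each panel; numbers are replicates and lines are means of 3 libraries. Nop10 over Dkc1 lies at 0.511 to 0.523 in siRSL24D1 and 0.583 to 0.684 in siCtrl, and the other ratios overlap or come close.

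Levels can be compared between genes only per length. With counts per base of the longest transcript scaled to the same total in every library, Nhp2 was highest, at 494 ± 18.2 in siRSL24D1 and 420.4 ± 10.7 in siCtrl (SD, n = 3 each), followed by Nop56 at 244 ± 6.94 and 204 ± 2.12. The lowest were Naf1, at 25.2 ± 3.81 and 25.5 ± 4.60, and Shq1, at 10.2 ± 0.50 and 9.40 ± 0.66. Dkc1 was at 128 ± 1.48 and 106 ± 2.21, and Gar1 at 69.6 ± 1.75 and 69.4 ± 1.51. In siCtrl the order was Nhp2, Nop56, Nop10, Fbl, Nolc1, Dkc1, Gar1, Nop58, Naf1 and Shq1; the library ranges overlapped between Nop10 and Fbl and between Gar1 and Nop58, and between no other neighbours. In siRSL24D1 Fbl stood before Nop10, with overlapping ranges, and Nop58 before Gar1. Naf1 and Shq1 were also the lowest pair with the mean length of a gene's transcripts and with the APPRIS principal transcript, but the other places depended on the choice. With mean lengths Nop56 was highest, at 489 ± 11.5 in siRSL24D1 and 410 ± 5.58 in siCtrl, before Nop58 and then Nhp2, at 327 ± 11.2 and 278 ± 8.17, and Nop10 was the seventh in both groups. With principal transcripts Nhp2 was highest again, and Nop58 was at 412 ± 9.06 in siRSL24D1 and 331 ± 5.59 in siCtrl. With the longest transcripts, Fbl, Nop56 and Nop58 summed to 0.584 ± 0.009 of the summed H/ACA core in siRSL24D1 and 0.576 ± 0.005 in siCtrl. With the principal ones they summed to 1.5 ± 0.03 and 1.45 ± 0.02, so which sum was higher cannot be read from these counts. Snu13, another protein of the box C/D particle, is not among the genes described here and was left out of the sum.

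Reads of some of these genes could be shared. Exons of Nop56, Dkc1 and Nhp2 overlap those of Idh3b, Mpp1 and Rmnd5b on the other strand, and the strand setting of the counting is not given in the sources used here. Those neighbours had log2 fold changes of -0.04, -0.04 and 0.13 and were not called (edgeR adjusted p = 0.498, 0.711 and 0.189). Stretches of at least 100 bases at 95% identity or more were found in transcripts of 4 pseudogenes for Nop56 (up to 760 bases), of 2 other genes for Fbl (up to 984), of 3 for Dkc1 (up to 145) and of 32 for Nop58 (up to 196). The other 6 genes had none. Estimated counts were not whole numbers for Nop58 and Dkc1 in all 6 libraries and for Nolc1 and Shq1 in 4 and Gar1 in 1, and were whole for the other 5 genes in every library.

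Promoter sequences, from 250 bases before to 50 after the start, were available for 8 of the genes in the RefSeq table of GRCm38.p6; Fbl and Naf1 are named only. CGGAAG, 1 form of the sites recognised by ETS-family factors, stood on either strand in 5 of the 8 (Nop10, Nhp2, Gar1, Nolc1 and Shq1), and in 16.9% of all 32851 promoters of this length. Other forms of these sites were not searched. CACGTG, the palindromic E-box, stood in 0 of the 8 and in 7.15% of all promoters. The genes that rose were divided: Nhp2 and Nolc1 hold CGGAAG once each, and Nop56, Nop58 and Dkc1 do not. Nop10, Gar1 and Shq1, which were not called, hold it 1, 3 and 3 times, so a match was not particular to genes that rose. The Nhp2 and Nolc1 promoters are shown as those of risen genes with a match, the match in capitals, at chr11:51619523-51619822 and chr19:46075597-46075896, plus strand.
Nhp2: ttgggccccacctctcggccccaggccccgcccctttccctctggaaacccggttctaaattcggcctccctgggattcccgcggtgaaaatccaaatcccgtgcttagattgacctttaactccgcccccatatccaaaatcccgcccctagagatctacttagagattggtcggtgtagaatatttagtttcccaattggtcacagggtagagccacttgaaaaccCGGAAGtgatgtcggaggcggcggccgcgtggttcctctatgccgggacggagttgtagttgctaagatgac
Nolc1: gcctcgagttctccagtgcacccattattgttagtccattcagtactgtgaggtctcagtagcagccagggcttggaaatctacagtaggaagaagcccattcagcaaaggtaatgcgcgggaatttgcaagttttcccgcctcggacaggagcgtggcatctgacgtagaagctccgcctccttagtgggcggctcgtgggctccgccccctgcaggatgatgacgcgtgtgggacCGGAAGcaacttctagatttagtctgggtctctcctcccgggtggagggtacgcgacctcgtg

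The machinery around the snoRNPs moved in both directions. In 6 lists of 58 genes that assemble, process or act beside snoRNPs, 56 were in the table and 55 were tested; Nopchap1 and Dnaaf10 had no row under these symbols, and Fbll1, the fibrillarin-like gene, did not pass the filter. Of the 55, 15 were higher (27.3%, against 21.2% of all genes) and 8 lower (14.5%, against 20.0%), at a median log2 fold change of 0.05. Without siCtrl 3 and siRSL24D1 2, 15 were higher (27.3%, against 26.4%) and 16 lower (29.1%, against 26.5%).

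Other proteins of the particles and the nucleolus gave no call: 0 of 5 tested were higher or lower, against 21.2% and 20.0% of all genes. Their median was 0.05, and 0 were also called by DESeq2, by limma-voom and at an unadjusted p under 0.05. Snu13, a box C/D protein of that list, was at 0.04 (edgeR adjusted p = 0.56). The smallest p in that list was that of Rrp9, a U3 snoRNP protein, at 0.12 (edgeR adjusted p = 0.176), which passed after the length correction (0.17, adjusted p = 0.018). Among assembly chaperones, which bring the C/D proteins together with the help of HSP90, 1 of 13 rose and 3 fell, at a median of -0.05. These are 7.69% and 23.1%, against 21.2% and 20.0% of all genes. Znhit3, a zinc-finger factor of box C/D assembly, stood at 40.7 ± 1.03 CPM in siRSL24D1 and 34.2 ± 0.88 CPM in siCtrl, a log2 fold change of 0.25 (edgeR adjusted p = 0.00326). The prefoldin subunit Pfdn2 fell by 0.30, its partner Uri1 by 0.21 and the HSP90 gene Hsp90aa1 by 0.17 on the log2 scale. The call of Hsp90aa1 was lost without siCtrl 1, siCtrl 2, siRSL24D1 1 or siRSL24D1 3 (edgeR adjusted p = 0.0864 to 0.128).

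In the list of cap binding, processing and trafficking, 3 of 9 rose and 1 fell, at a median of 0.09. These are 33.3% and 11.1%, against 21.2% and 20.0% of all genes. Wrap53 (TCAB1), which takes H/ACA RNAs and telomerase to Cajal bodies, rose to 41.8, 44.6 and 44.1 CPM in siRSL24D1, against 30.5, 31.1 and 29.2 CPM in siCtrl. All siRSL24D1 libraries were well above all siCtrl libraries, at a log2 fold change of 0.52 ± 0.05 (SE, edgeR adjusted p = 0.000158). GENCODE M21 places Wrap53 at chr11:69561758-69580255 on the minus strand and Trp53 at chr11:69580359-69591873 on the plus strand, 103 bases apart and with no overlap. Trp53 was at 0.25 (edgeR adjusted p = 0.00325); the annotation and strand setting used for counting are not known, and whether reads of Trp53 entered the Wrap53 counts was not tested. Ncbp2, of the nuclear cap-binding complex, and Smn1, of the complex that loads Sm rings and meets snoRNPs in Cajal bodies, both rose by 0.33, and Parn, an exonuclease that trims the ends of H/ACA RNAs, fell by 0.26. Of the 2 telomerase genes, 0 rose and 1 fell, against 21.2% and 20.0% of all genes. Tert, the reverse transcriptase, fell to 18.9 ± 1.22 CPM in siRSL24D1, against 24.4 ± 0.91 CPM in siCtrl. Its log2 fold change was -0.37 (edgeR adjusted p = 0.00265). Tep1, a telomerase-associated protein, was at -0.07.

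**Figure D5:**
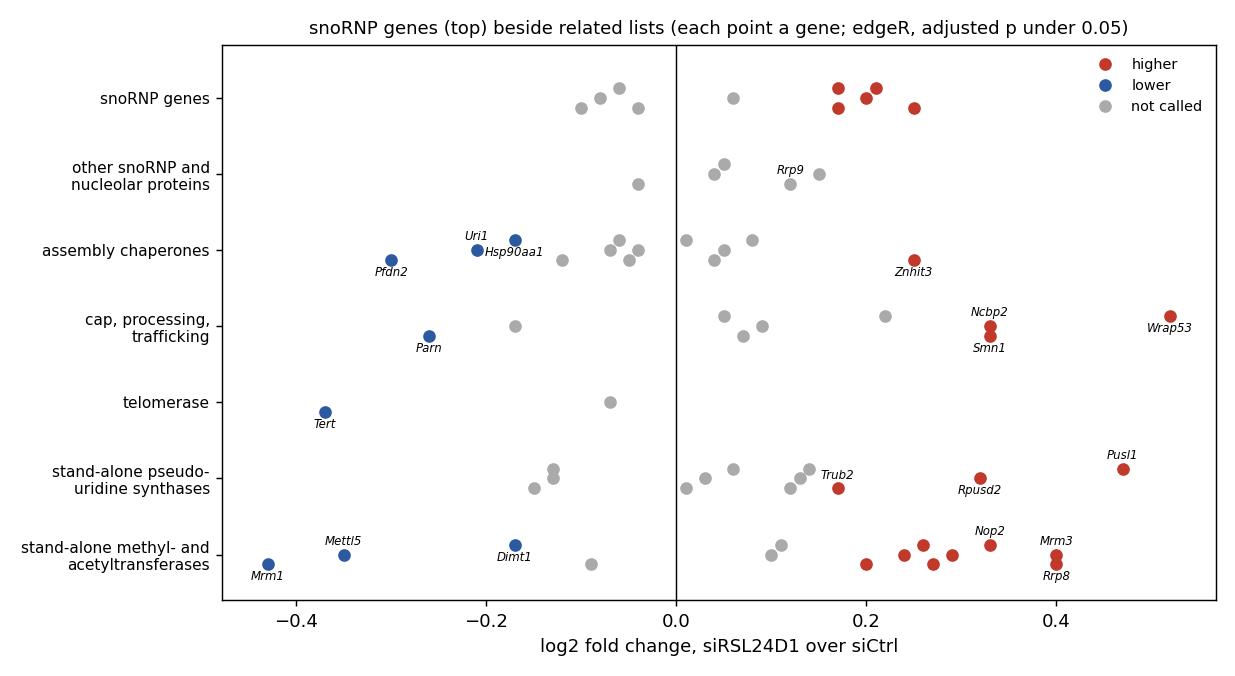
Log2 fold change of siRSL24D1 over siCtrl (x axis) of each tested gene, with the 10 snoRNP genes in the top row and the 6 related lists under it; red points were called higher, blue lower and grey not called, and vertical offsets within a row only separate points. Most calls among methyl- and acetyltransferases lie right of 0 (8 higher and 3 lower), and Wrap53, at 0.52, is the point farthest right.

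Enzymes that modify RNA and are not snoRNP subunits, here called stand-alone, were set beside the snoRNPs. Of 12 stand-alone pseudouridine synthases 3 rose, at a median of 0.09, and 0 fell (edgeR; 0 by DESeq2 and by limma-voom, and 1 at an unadjusted p under 0.05). They were Pusl1 at 0.47, Rpusd2 at 0.32 and Trub2 at 0.17, the last of which lost its call in several alternatives (edgeR adjusted p up to 0.163). Of 14 stand-alone rRNA methyl- and acetyltransferases with their cofactor, 8 rose and 3 fell, at a median of 0.22. These are 57.1% and 21.4%, against 21.2% and 20.0% of all genes. DESeq2 called 7 higher and 2 lower, and limma-voom 8 and 2. Rrp8, which methylates a base of the large-subunit rRNA, and Mrm3, which acts on mitochondrial rRNA, each rose by 0.40. Nop2, a methyltransferase of the large-subunit rRNA, stood at 189 ± 11.2 CPM in siRSL24D1 and 151 ± 7.32 CPM in siCtrl, a log2 fold change of 0.33 (edgeR adjusted p = 0.00254). The mitochondrial enzyme Mrm1 fell by 0.43, Mettl5, an adenine methyltransferase of the small-subunit rRNA, by 0.35, and Dimt1, which acts on the small subunit, by 0.17, a call lost in several alternatives (edgeR adjusted p up to 0.181).

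The genes outside the list whose values over the 6 libraries were closest to the mean of the 10 snoRNP genes were Sgpl1, Brd7 and Men1. Closeness was the Euclidean distance between centred log2 CPM values, over 10157 genes whose average log2 CPM was 3 or more, and came to 0.0206, 0.0216 and 0.0286. Their log2 fold changes were 0.07, 0.09 and 0.06, and none of them was called (edgeR adjusted p = 0.198, 0.0926 and 0.262).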

How the data were processed

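RNA of 6 libraries had been depleted of rRNA and made into libraries with a stranded total RNA kit, per the labels' protocols. The authors deposited estimated counts per gene symbol, which carry no scaling. STAR 2.7.0f, Salmon 0.14.1 and the build GRCm38 are named per the submitters' processing notes; roles, annotation and strand setting are not given there. Library totals, given in the report, set the counting error; the spread between libraries is larger. All 6 columns were used. Groups come from the siRNA label.

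Estimated counts were rounded (the tests had been planned for counts), filtered with filterByExpr (minimum count 10, minimum total 15) and scaled by TMM. The groups were compared by the quasi-likelihood test of edgeR 4.0.16 in R 4.3.3, two-sided, with Benjamini-Hochberg adjustment over 15084 genes; common biological variation was 7.48%. The fit was first tested on simulated data with known changes. It recovered 40% of 1.25-fold, 86% of 1.5-fold and 100% of 2-fold changes, and called 0.12% of unchanged genes. The simulation changed a far smaller part of the genes than was called in the data. It also held no length trend and no library that stood apart, so these rates need not hold for the libraries here. The largest fold change of a snoRNP gene was 1.19 (Nop58), below the smallest change simulated. A snoRNP gene that did not pass the test may therefore still differ. Ratios of 2 genes were compared by exact permutation with scipy 1.17.1. Alternatives, with limma 3.58.1 and DESeq2 1.42.0 among them, are described in the closing section. Same-numbered libraries were not treated as pairs.

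The genes, lists and tests were chosen with earlier results of these data known. The rule names Rsl24d1, the 10 snoRNP genes, of each related list every called gene of a direction with 5 or fewer calls and otherwise the 3 with the largest change, the smallest p where none was called, and the 3 closest profiles. Coordinates, lengths and snoRNA sequences are from GENCODE M21 (GRCm38), which held 22304 of the 22332 symbols, and promoters from RefSeq. Protein sequences were not used here. Snu13 is named outside the rule, as a box C/D protein that is not among the 10.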

Additional observations from a re-analysis of the deposited data

How the results depend on the processing

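All values here compare siRSL24D1 with siCtrl. The number of snoRNP genes called higher, 5 with all libraries, was 3 with upper-quartile scaling (all genes 18.4% higher and 22.4% lower). It was also 3 at an adjusted p under 0.01 (12.5% and 12.4%). Corrected for the length of the longest transcript it was 4, with Nop58 lost (22.4% and 22.2%). With the replicate number also in that model it was again 4 (23.1% and 22.8%). Without siCtrl 3 and siRSL24D1 2 together (chosen after seeing the data), 3 were higher and 3 lower. When each library was left out in turn, 3 to 5 were higher and 0 to 1 lower. Over all genes, 3191 higher and 3021 lower calls became 1886 and 1867 at an adjusted p under 0.01, and 2210 to 3356 higher and 2147 to 3285 lower when each library was left out. In the 6 related lists 8 lower calls became 16 without siCtrl 3 and siRSL24D1 2, and lay between 6 and 11 (12 to 15 higher) when each library was left out. Fewer libraries alone can cost calls; the cause of each lost call was not tested.

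Signs that turned belonged to values that were not called: Gar1 at 0.01 and Shq1 at -0.01 under the length correction with or without the block, Fbl at 0.02, Gar1 at 0.00 and Shq1 at -0.01 under that for APPRIS principal transcripts, and some in the fits with fewer libraries. With each library left out, or both that stood apart, Naf1 ran from -0.14 to 0.13, Rrp9 from -0.01 to 0.16 and Fbl from -0.18 (called) to 0.01; the Naf1 to Gar1 difference ran from -0.11 to 0.14 with each left out. The ratio of summed Fbl, Nop56 and Nop58 to the summed H/ACA core was 1.48 in siRSL24D1 and 1.44 in siCtrl with mean lengths. It was 1.5 and 1.45 with principal transcripts, against 0.584 and 0.576 with the longest.

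Rsl24d1 stayed between -0.95 and -0.85 in every alternative. With the replicate number as a block, all 5 snoRNP calls remained and 3327 genes were higher and 3104 lower; the Nop10 to Dkc1 difference was -0.30 by paired differences (exact permutation p = 0.25, the smallest 3 pairs can give). Deviations of same-numbered libraries from their group means correlated at -0.218, 0.144 and 0.168 across genes, and those of siRSL24D1 2 and siCtrl 3 at -0.403. Deviations from a mean of 3 libraries are tied to each other, so this cannot decide whether the numbers pair the libraries. Of the snoRNP genes, 6 had over 100 CPM in every library: the 5 called higher and Fbl, which was not called. How depth bears on the calls was not tested.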
